A study of Homo sapiens with 3 samples.

Results

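Zinc transporters, metallothioneins and the metal-responsive transcription factor were followed across 3 Affymetrix arrays of LNCaP, an established cell line from a human prostate cancer. Members were all probe sets annotated only to genes named SLC39A, SLC30A, MT1, MT2A, MT3, MTF1 or MTF2, which gave 117 of the 49388 probe sets on the array, for 38 of the 18131 genes it names. The rule reads gene names alone, but the genes were picked with earlier results of these arrays known. A further 3 genes of these names in RefSeq, MT1A, MT1CP and MT1L, were not analysed here. No probe set carried several member genes alone. The only mixed one, for MT1JP, MT1M and MT1P3, was left out because MT1P3 is outside the naming rule.

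The cells were grown without phenol red and transfected by lipid carrier with 75 nM of siRNA, and RNA was taken 48 h later. The 3 groups were a control siRNA and 2 siRNAs labelled for HOXD-AS1, which is a long non-coding transcript of the HOXD cluster, each with 1 array, so no difference has a replicate check and none was tested. The source labels call the cells LNCaP, LNCaP-Bic and LNCaP-AI in that order, while the cell line label gives LNCaP throughout. A difference between any of the arrays, siRNA against control included, therefore cannot be told apart from a difference between cells of these names. The labelled inhibition rate relative to the control was 1 for the control siRNA, 0.23 for siRNA 1 and 0.25 for siRNA 2. With the control at 1, the values read as a level remaining, although the label calls them inhibition. As 0 probe sets were annotated to HOXD-AS1, the knockdown was not analysed here. The labels also place the siRNA target points, 588 and 1290, on the coding sequence of WDR5, which the siRNA names do not mention. The siRNA strands given in the labels are shown because several transporters differed in 1 siRNA library alone. The part of the strands in those differences was not tested, and no transcript was searched for matches to them. The 2 capitals at each 3′ end are the terminal bases that siRNA duplexes usually leave unpaired.
control siRNA: uucuccgaacgugucacguTT
HOXD-AS1 siRNA 1: gaaagaaggaccaaaguaaUU
HOXD-AS1 siRNA 2: gcccuuucugaccugcuuaUU

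Cells move zinc with opposing transporter families. SLC39A proteins, also called ZIP, bring zinc into the cytosol from outside or from organelles, and SLC30A proteins, also called ZnT, carry it out of the cytosol. Metallothioneins are small cysteine-rich proteins that bind zinc and copper, and MTF1 is the zinc-sensing factor that switches on metallothionein genes and the exporter gene SLC30A1 through metal response elements. Normal prostate epithelium accumulates zinc, and prostate cancer cells typically hold less of it, with SLC39A1 known as a main zinc importer of prostate cells.

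Promoters of 5 metal-regulated members are shown first, because they hold the sequence to which MTF1 is known to bind. A further reason is that only some of these genes were measured in the cells. Each is the 250 bases before the gene start from RefSeq (GRCh38.p14), written in the direction of the gene. Capitals mark matches to TGCACNC or TGCGCNC on either strand, and no matches overlapped in these 5 sequences.
MT2A, chr16:56608334-56608583, plus strand: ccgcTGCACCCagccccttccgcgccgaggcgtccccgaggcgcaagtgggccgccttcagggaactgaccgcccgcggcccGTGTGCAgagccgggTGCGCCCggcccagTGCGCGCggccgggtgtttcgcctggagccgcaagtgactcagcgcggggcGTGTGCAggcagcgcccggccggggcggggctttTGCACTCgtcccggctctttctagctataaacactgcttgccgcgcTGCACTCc
MT1X, chr16:56682220-56682469, plus strand: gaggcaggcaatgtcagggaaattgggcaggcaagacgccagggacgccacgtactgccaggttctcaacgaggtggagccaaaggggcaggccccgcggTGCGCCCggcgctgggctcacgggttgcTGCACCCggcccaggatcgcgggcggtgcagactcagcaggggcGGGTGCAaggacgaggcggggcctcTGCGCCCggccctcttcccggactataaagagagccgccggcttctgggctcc
MT1H, chr16:56669564-56669813, plus strand: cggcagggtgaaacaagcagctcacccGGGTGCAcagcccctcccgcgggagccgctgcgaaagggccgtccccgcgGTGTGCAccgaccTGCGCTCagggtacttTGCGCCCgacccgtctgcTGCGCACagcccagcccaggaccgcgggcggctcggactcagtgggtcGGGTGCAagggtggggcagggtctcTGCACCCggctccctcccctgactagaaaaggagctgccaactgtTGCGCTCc
MT1B, chr16:56651636-56651885, plus strand: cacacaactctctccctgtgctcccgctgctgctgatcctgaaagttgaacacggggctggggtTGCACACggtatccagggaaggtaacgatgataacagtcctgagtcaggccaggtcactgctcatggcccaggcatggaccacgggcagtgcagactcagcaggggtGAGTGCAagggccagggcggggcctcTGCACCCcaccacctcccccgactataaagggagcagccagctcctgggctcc
SLC30A1, chr1:211579162-211579411, minus strand: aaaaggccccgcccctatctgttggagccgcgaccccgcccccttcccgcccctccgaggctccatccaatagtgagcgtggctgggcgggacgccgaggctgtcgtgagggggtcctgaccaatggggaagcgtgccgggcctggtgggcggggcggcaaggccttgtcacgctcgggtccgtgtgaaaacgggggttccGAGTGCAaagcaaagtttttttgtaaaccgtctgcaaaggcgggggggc

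The MT2A promoter held 7 matches, MT1H 8, MT1X 4, MT1B 3 and SLC30A1 1. Of 35116 promoters of this length in the table, 24.8% held at least 1 match and 1.05% held at least 3. Promoters were found for 27 member genes, 36 in all, of which 16 held a match and 5 held at least 3. These 5 were the 4 metallothionein promoters found and that of the vesicular exporter gene SLC30A2. None was found for the other metallothionein genes, MT1F and MT1G among them. MT1X, MT1H and MT1B each had a forward match starting 53 bases before the gene start, and MT2A had one at 54. A reverse match started 78 bases before the start in MT1X and MT1H and 79 in MT1B. These matches describe letters only. MT1H and MT1B stayed under the detection limit explained next on all arrays, whereas MT1X and MT2A were above it on all 3.

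Values are probe set intensities on a linear scale. The median of all values, an intensity of 26.0, served as the floor, and probe sets above it on any array were taken as measured. Of the 117 member probe sets 72 were measured, for 27 genes, and 52.6% of all probe sets were. The 11 genes with no measured probe set were SLC39A2, SLC39A5 and SLC39A12, SLC30A2, SLC30A8 and SLC30A10, and the metallothionein genes MT1B, MT1DP, MT1H, MT1JP and MT1M. Differences are siRNA minus control on the log2 scale after lower values were raised to the floor, so folds that involve a floored value are lower bounds. A 2-fold difference corresponds to 1. Intensities of a probe set are listed in the order control, siRNA 1, siRNA 2. Both siRNA differences use the same control array. Fewer cells of a kind and less RNA per cell cannot be told apart in such bulk samples.

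The arrays were alike in overall signal, with medians between 25.7 and 26.1 and sorted log2 values within 0.10 of each other. The luminal genes KLK2, KLK3, TMPRSS2, HOXB13, KRT8 and KRT18 were measured on the arrays, with summed intensities over the list of 13165, 13866 and 11477 for control, siRNA 1 and siRNA 2. The androgen-regulated protease genes KLK2, at 5176, 4845 and 3230, and KLK3, at 2602, 2329 and 1931, were lowest with siRNA 2. The source label of that array is LNCaP-AI. TMPRSS2 read 1828, 2640 and 2253. By brightest probe set, 4 of the 6 luminal genes were higher than the control with siRNA 2 and 2 lower, with a median log2 difference of 0.12. Of 6 markers of androgen receptor-negative lines and basal cells, VIM and KRT14 were measured, and the list summed to 746, 691 and 835. Of 5 leukocyte markers only CD68 was measured, with PTPRC at 2.68 to 2.83. Of 5 stromal markers 3 were measured, with a summed intensity over the list of 101, 156 and 241 on the control, siRNA 1 and siRNA 2 arrays, of which ACTA2 gave 41.7, 92.9 and 150.0. DCN and LUM were under 5. The part of these markers in the zinc gene differences was not tested.

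With siRNA 1, 4 of the 72 measured member probe sets (5.56%) were 2-fold or more from the control, beside 2.60% of all 25961 measured probe sets. Of these, 1 was higher, beside 1.14%, and 3 were lower, beside 1.46%. With siRNA 2 it was 1 of 72 (1.39%), beside 1.31%, and it was lower, beside 0.636% lower and 0.678% higher among all. At 1.5-fold the counts were 18 (25%) beside 12.0% with siRNA 1, and 4 (5.56%) beside 9.14% with siRNA 2. The 18 were 10 higher and 8 lower, beside 6.45% and 5.59%, and the 4 were 3 higher and 1 lower, beside 3.98% and 5.17%. Probe sets of a gene share its transcript and are not independent, and 6 of the 18 with siRNA 1 belonged to SLC39A1. The siRNA 2 shares were near or under the background. Between the siRNA arrays themselves, 4 member probe sets (5.56%) differed 2-fold or more, beside 2.11% of all. The 3 of SLC39A1 were higher with siRNA 2, beside 0.535%, and the 1 of SLC39A14 was lower, beside 1.57%.

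**Figure D1:**
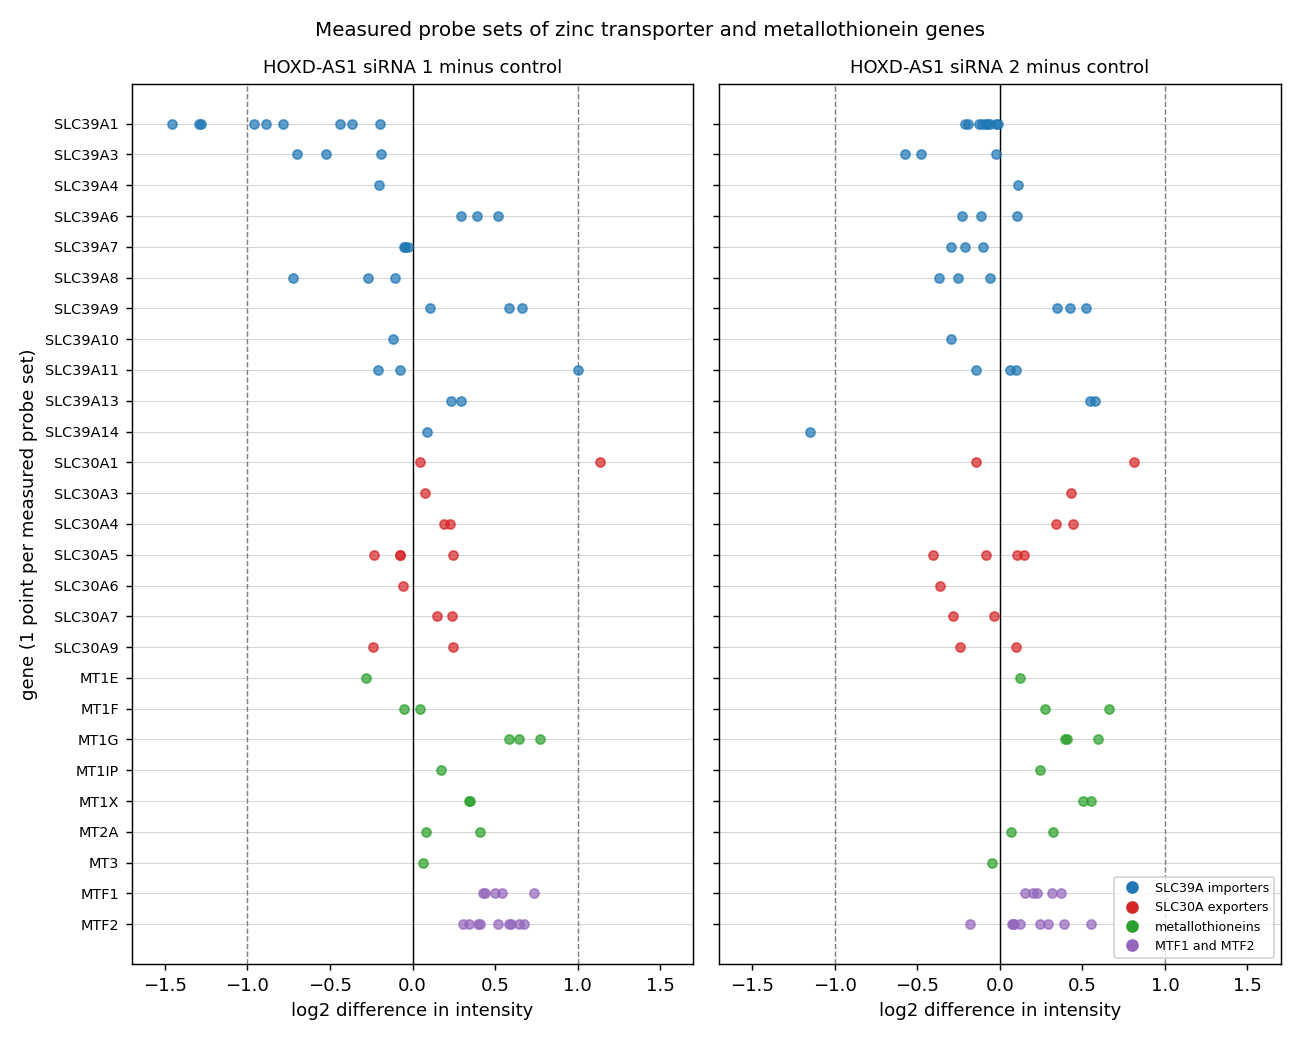
Log2 difference in intensity from the control array (x axis) for each of the 72 measured member probe sets, by gene (y axis), with siRNA 1 on the left and siRNA 2 on the right; dashed lines mark 2-fold. SLC39A1 points spread from -1.46 to -0.19 with siRNA 1 and from -0.21 to -0.01 with siRNA 2, and SLC39A14 lies at 0.09 and -1.15.

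Among the importers, SLC39A1 was the gene with the largest difference with siRNA 1, and all of its 9 probe sets were lower there than in the control. Its brightest probe set read 514, 212 and 509.6. The siRNA 1 library was the low one, 2.43-fold under the control, while control and siRNA 2 were nearly alike. Another probe set read 374, 152 and 368, and the one with the widest spread read 218, 79.5 and 199. The log2 differences of these with siRNA 1 were -1.30 and -1.46.

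The other 6 SLC39A1 probe sets followed the same order. Those reading 176, 132 and 79.9 in the control read 102, 67.9 and 43.3 with siRNA 1 and 163, 125 and 75.6 with siRNA 2, and differed from the control by -0.78, -0.96 and -0.88 with siRNA 1. The dimmer probe sets, at 54.2, 35.2 and 29.7 in the control, differed by -0.37, -0.44 and -0.19, the last 2 being bounds because siRNA 1 was under the floor. Over the 9 probe sets the median difference was -0.88 with siRNA 1 and -0.09 with siRNA 2. Of 3286 genes with at least 3 measured probe sets, 49 (1.49%) had a median as low or lower with siRNA 1, and 4.38% were 1.5-fold or more lower. With siRNA 2, 1248 of these genes were as low as SLC39A1 or lower, and 3.96% were 1.5-fold or more lower. With the floor at the 75th percentile, the probe set at 218 no longer differed 2-fold with siRNA 1, since its siRNA 1 value was then raised to that floor.

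**Figure D2:**
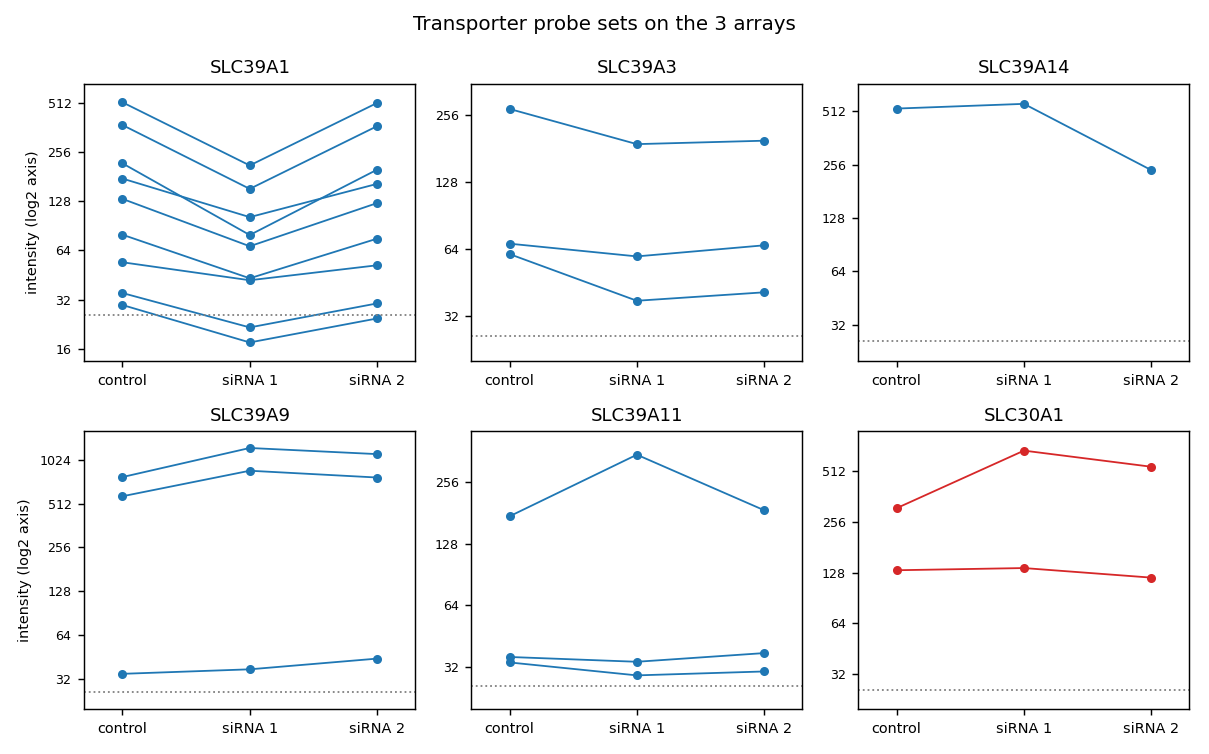
Intensity of every measured probe set (y axis, log2-scaled) on the control, siRNA 1 and siRNA 2 arrays (x axis) for 6 transporter genes; each line joins the values of 1 probe set and the dotted line is the floor of 26.0. All SLC39A1 lines dip at siRNA 1, the SLC39A14 line drops from 562 with siRNA 1 to 238 with siRNA 2, and in SLC39A11 and SLC30A1 only the brightest line bends.

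SLC39A14, which encodes an importer of zinc, iron and manganese, was the only member 2-fold or more from the control with siRNA 2. Its single measured probe set read 529, 562 and 238, so the siRNA 2 library was the low one, by 2.22-fold. The log2 differences were 0.09 and -1.15. The other 3 SLC39A14 probe sets were under 7 on all arrays, so no further probe set bears on the value.

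SLC39A3, another plasma membrane zinc importer, was lower than the control in both siRNA libraries. Its brightest probe set read 273, 189 and 196 (-0.53 and -0.48). A dimmer one read 60.6, 37.3 and 40.8 (-0.70 and -0.57). The remaining one read 67.5, 59.1 and 66.4 and differed little. SLC39A8, which carries zinc, manganese and cadmium, gave unequal readings. Its brightest probe set read 587, 545 and 564 and differed by -0.11 and -0.06, while another read 99.4, 60.2 and 83.5 and differed by -0.72 with siRNA 1 and -0.25 with siRNA 2. A dim one read 33.5, 27.7 and 24.8, the last under the floor (-0.27 and -0.37).

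SLC39A9, a Golgi and cell surface zinc transporter also described as a membrane androgen receptor, was higher in both siRNA libraries. Its brightest probe set read 778, 1232 and 1118, which is 1.58-fold over the control for siRNA 1 and 1.44-fold for siRNA 2. A second read 575, 860.2 and 773, and a dim one 34.7, 37.3 and 44.2. The control was the lowest array in each. SLC39A13, a transporter of the early secretory pathway, read 139, 170.2 and 203 in its brighter probe set and 100.02, 117 and 149 in the other, with differences of 0.29 and 0.23 with siRNA 1 and 0.54 and 0.58 with siRNA 2.

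SLC39A6, known as LIV-1 and estrogen-regulated in breast cells, read 2106, 2764 and 2262. Its 3 probe sets spanned log2 differences of 0.29 to 0.52 for siRNA 1, and -0.23 to 0.10 for siRNA 2. SLC39A11 depended on the probe set. One read 174, 348 and 186, a log2 difference of 1.00 that was just short of 2-fold and passed it when arrays were scaled to a common median. The 2 others, between 29.1 and 37.4 on all arrays, differed by -0.21 and -0.08 with siRNA 1 and by -0.15 and 0.06 with siRNA 2.

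The remaining importers differed less. SLC39A7, which releases zinc from the endoplasmic reticulum, read 209.7, 203 and 195 and differed by at most -0.05 with siRNA 1 and -0.29 with siRNA 2 over 3 probe sets. SLC39A10, a plasma membrane importer, read 848, 781 and 692 (-0.12 and -0.29). SLC39A4, the importer needed for intestinal zinc uptake, read 784, 680.1 and 846 (-0.21 and 0.11). Over the 32 measured importer probe sets the median difference was -0.15 with siRNA 1 and -0.10 with siRNA 2, where the median of all measured probe sets was 0 with each. With siRNA 1, 22 of the 32 were lower than the control, beside 48.5% of all probe sets. With siRNA 2 it was 23 of 32, beside 49.9%. In each library 9 of these came from SLC39A1. The siRNA 1 median shrank to -0.03 when the floor was raised to the 75th percentile, and with only the 4 importer probe sets of plain type the siRNA 2 median was 0.02.

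The exporter gene SLC30A1, a plasma membrane transporter and known MTF1 target, gave unequal readings. One probe set read 309, 677 and 543, which was 2.19-fold and 1.76-fold higher. The other read 132, 136 and 120 (0.04 and -0.15 on the log2 scale). Both probe sets were higher than the control with siRNA 1, by very different amounts, and they differed in direction with siRNA 2.

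Exporters of the secretory pathway and of organelles stayed within 1.5-fold of the control. SLC30A4, found on endosomes and secretory vesicles, read 138, 161 and 174 (0.23 and 0.34), and its other probe set 40.8, 46.5 and 55.4. SLC30A3, the exporter of synaptic vesicles, read 81.9, 86.4 and 110.3 (0.08 and 0.43). SLC30A5 and SLC30A6, whose products act together in the Golgi, read 258, 305 and 195 and 176, 169 and 137. The SLC30A5 probe set was high with siRNA 1 and low with siRNA 2, a log2 difference of -0.65 between them, but its 3 other probe sets differed by 0.15 to 0.22 the opposite way. SLC30A7, also of the Golgi, read 166, 184 and 136 (0.15 and -0.29). A second SLC30A7 probe set gave 107, 126 and 105 (0.24 and -0.03). SLC30A9, a mitochondrial zinc exporter, read 695, 825 and 743 (0.25 and 0.10), while its dim probe set, at 30.7 in the control, was under the floor with both siRNAs. The median over 14 exporter probe sets was 0.11 with siRNA 1 and 0.03 with siRNA 2, and the latter became -0.08 when the floor was raised to the 75th percentile and 0.34 with only the 3 plain probe sets.

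Metallothioneins were mostly a little higher than the control in each siRNA library. With siRNA 1, 10 of 12 measured probe sets were higher, beside 49.5% of all measured probe sets, with a median of 0.26. With siRNA 2 it was 11 of 12, beside 48.1%, with a median of 0.36. None was 2-fold from the control, and the siRNA 1 median became 0.08 when the floor was lowered to the 25th percentile, where dim probe sets enter. All 12 are of types that can bind several transcripts (suffixes _a_at, _s_at and _x_at). Metallothionein genes are near-identical in sequence, so the reading of 1 gene may hold signal of another. All SLC39A1 probe sets (_a_at or _x_at) and the 2-fold readings of SLC30A1 (_s_at) and SLC39A14 (_a_at) also have such suffixes. The transcripts bound may be of 1 gene alone, and signal from other genes was not tested.

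MT2A, the major human metallothionein, read 4677, 6208 and 5857. The control was the lowest of the arrays, with differences of 0.41 and 0.32. The other MT2A probe set read 79.4, 83.9 and 83.2. MT1X read 396, 502 and 561 in one probe set and 368, 469.5 and 539 in the other, and was highest with siRNA 2 in both (0.50 and 0.55).

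MT1G was the metallothionein with the largest difference with siRNA 1. Its probe sets read 273, 427 and 362, then 176, 300.4 and 266, then 206, 308 and 270.2. The siRNA 1 library was the highest in each, by log2 differences of 0.59 to 0.77 from the control, and siRNA 2 lay between, at 0.39 to 0.60. Its median difference with siRNA 1 was 0.64, and 135 of the 3286 genes with at least 3 measured probe sets (4.11%) were as high or higher. With siRNA 2 the median was 0.41, and 241 genes (7.33%) were as high or higher. Of these genes 5.39% were 1.5-fold or more higher with siRNA 1 and 3.62% with siRNA 2. MT1F had another order. It read 203, 209 and 321, a difference of 0.04 and 0.66, and its other probe set read 108, 104 and 131. Control and siRNA 1 were alike and siRNA 2 was the high one, with a median of 0.47 over both probe sets.

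The remaining metallothionein readings lay close to the floor. MT1E read 31.6, 23.2 and 34.3, the pseudogene MT1IP 33.7, 38.0 and 39.9, and MT3, the brain metallothionein, 48.4, 50.6 and 46.8. MT1M, at 3.93 on every array in one probe set, and MT1H, at 6.27 to 8.39, were far under the floor.

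**Figure D3:**
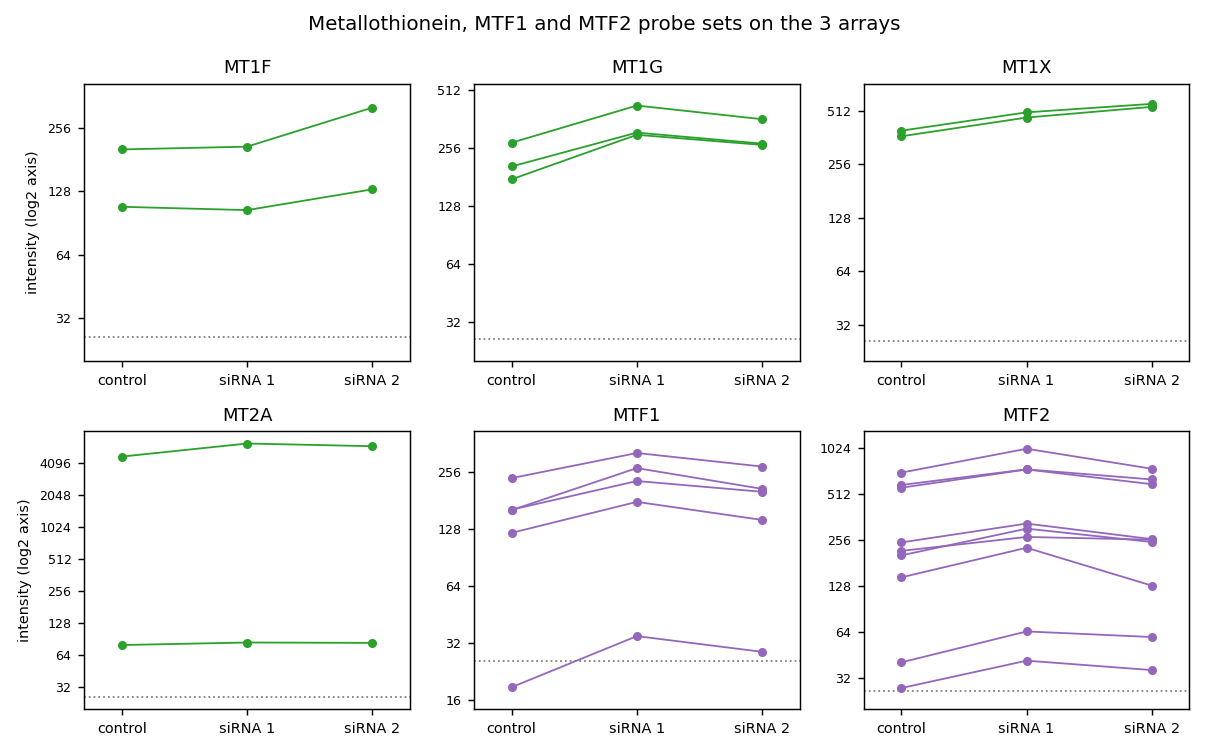
Intensity of every measured probe set (y axis, log2-scaled) on the control, siRNA 1 and siRNA 2 arrays (x axis) for 4 metallothionein genes, MTF1 and MTF2; each line joins the values of 1 probe set and the dotted line is the floor of 26.0. MT1G and MTF1 lines peak at siRNA 1, MT1X lines are highest at siRNA 2, and the brighter MT1F line goes from 209 with siRNA 1 to 321 with siRNA 2.

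The metallothionein genes lie in 1 run on chromosome 16. RefSeq lists 19 genes from MT4 to MT1X there, of which 3 are loci for non-coding RNA that carry no metallothionein name. The nearest measured coding genes outside the run were also read. BBS2, a ciliary protein gene before the run, differed by 0.26 with siRNA 1 and 0.48 with siRNA 2. NUP93, a nuclear pore gene after it, read 752, 1700 and 899, with differences of 1.18 and 0.26. With siRNA 1 this neighbour thus differed more from the control than any metallothionein did.

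MTF1 was higher than the control in all 5 probe sets with each siRNA. Its brightest probe set read 237, 322 and 273. Others read 161, 268 and 208, 162, 229 and 201, and 122, 178 and 143. The order of the arrays was the same in each, with siRNA 1 high, siRNA 2 between and the control low. Log2 differences ran from 0.43 to 0.74 for siRNA 1, and from 0.15 to 0.37 for siRNA 2, the lower end being a bound from a probe set under the floor in the control. Of 3286 genes with at least 3 measured probe sets, 7.85% had a median as high or higher with siRNA 1 and 18.4% with siRNA 2.

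MTF2 shares the name but is a Polycomb-associated chromatin protein and no metal sensor. Its brightest probe set read 707, 1014 and 749, and its 9 probe sets spanned 0.30 to 0.67 for siRNA 1 and -0.18 to 0.55 for siRNA 2. All 9 were higher than the control with siRNA 1, beside 49.5% of all measured probe sets. With siRNA 2 it was 8, beside 48.1%. Of 3286 genes with at least 3 measured probe sets, 7.15% had a median as high or higher with siRNA 1 and 29.9% with siRNA 2. With siRNA 1, 3 MTF2 probe sets were 1.5-fold or more higher, beside 6.45% of all. They read 145, 227 and 128, then 40.3, 64.3 and 59.1, then 27.3, 41.3 and 35.9. The siRNA 2 array was under the control in the first of these and between the others in the remaining ones.

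**Figure D4:**
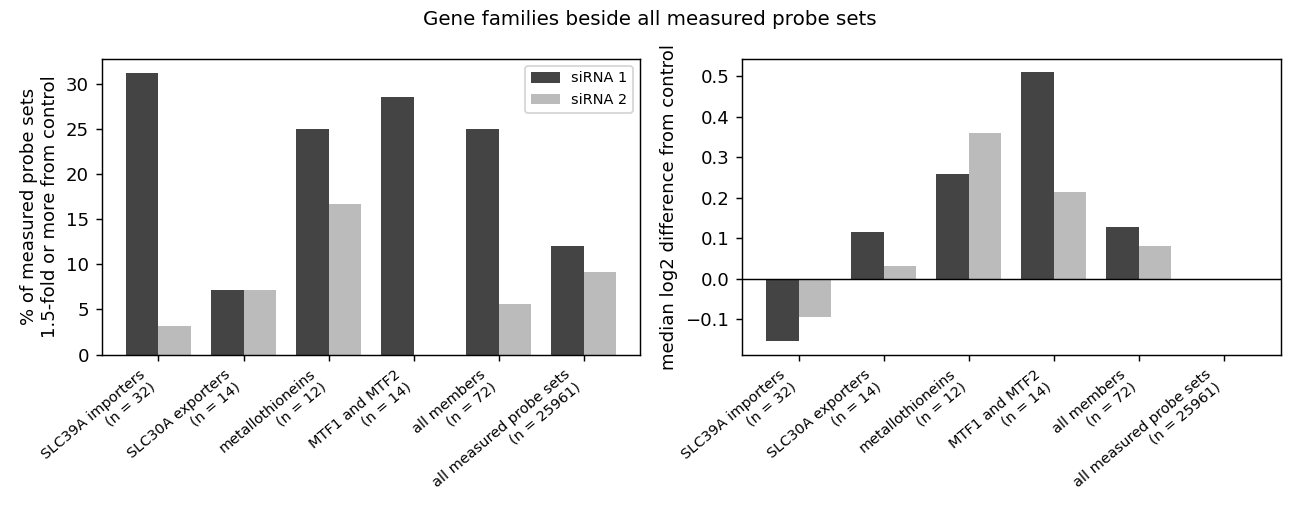
Left, the percentage of measured probe sets 1.5-fold or more from the control (y axis) in each member family and in all 25961 measured probe sets, with siRNA 1 dark and siRNA 2 light; right, the median log2 difference of the same sets. Metallothioneins have medians of 0.26 and 0.36 and importers of -0.15 and -0.10, while the median of all measured probe sets is 0.

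Other metal-handling genes are given by lists of genes, each read from its brightest probe set. Over all 11296 measured genes, 3.12% were 2-fold or more from the control with siRNA 1 and 1.40% with siRNA 2. At 1.5-fold the shares were 13.1% and 9.42%. Of 13 measured copper-handling genes 0 passed 2-fold, with medians of -0.03 and 0.05. With each siRNA 1 was 1.5-fold away, not the same gene. The copper chaperone genes COX17 and ATOX1 differed by -0.18 and -0.15 with siRNA 1 and by 0.05 each with siRNA 2. STEAP2 and STEAP3 were singled out after their values were seen. STEAP2 read 1154, 1944 and 1692, higher with both siRNAs (0.75 and 0.55) and past 1.5-fold with siRNA 1. STEAP3, an endosomal metalloreductase gene, read 185, 181 and 93.2, just under 2-fold lower with siRNA 2. Of 16 measured iron-handling genes 0 passed 2-fold, with medians of 0.06 and 0.02, and 1 passed 1.5-fold with siRNA 1 and 0 with siRNA 2. The ferritin light chain gene FTL differed by 0.28 and 0.21 and the iron chaperone gene PCBP2 by 0.02 and -0.08.

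Of 6 measured genes for other zinc or manganese transport or zinc binding, 0 were 1.5-fold or more from the control, with medians of 0.27 and 0.09 that moved to 0.11 and -0.09 with the probe sets of each gene averaged. The Golgi genes TMEM165 and ATP2C1, which serve manganese supply, differed by 0.25 and 0.48 with siRNA 1 and 0.35 and 0.45 with siRNA 2. Probe sets other than the brightest varied more. The 5 others of ATP2C1 ranged from 0.10 to 0.74 with siRNA 1 and from -0.52 to 0.41 with siRNA 2. TRPM7 differed by 0.28 and 0.24 in its brightest probe set and by -0.30 and -0.68 in its other one. AZGP1, a zinc-binding secretory glycoprotein gene of prostate, read 44.9, 43.9 and 42.95. Citrate metabolism, which zinc restrains in prostate epithelium, showed medians of -0.03 and 0.03 over 6 measured genes. By brightest probe set 0 were at 2-fold, and 1 was at 1.5-fold with siRNA 1 and 0 with siRNA 2. That gene, named after its values were seen, was ANKH, at 500, 790 and 488 (0.66 and -0.04). Its 2 other measured probe sets differed by 0.00 and 1.03 with siRNA 1, the latter past 2-fold. With siRNA 2 they lay between -0.37 and 0. The brightest genes of the list, ACLY and CS, differed by -0.03 and -0.02 with siRNA 1 and -0.08 and 0.15 with siRNA 2.

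Heat shock and oxidative genes, which metals can also induce, had 0 of 12 measured genes at 2-fold with siRNA 1 and 1 with siRNA 2. That gene was HMOX1, the heme oxygenase, which read 236, 234 and 1182. The siRNA 2 library alone was high, by 2.32 on the log2 scale, and the 2 other HMOX1 probe sets differed by 2.09 and 2.23 there. The list medians were -0.05 and 0.07, with 1 gene at 1.5-fold with siRNA 1 and 2 with siRNA 2. NQO1, a NRF2 target singled out after its values were seen, read 2593, 1392 and 1458, lower in both siRNA libraries (-0.90 and -0.83). Its other measured probe set differed less, by -0.33 and -0.61. Of 10 glucocorticoid- and androgen-induced genes, a hormone class that includes MT2A in many cells, 0 were 2-fold from the control, with medians of 0.26 and 0.13. At 1.5-fold there were 2 (20%) with siRNA 1, beside 13.1% of all measured genes, and 3 (30%) with siRNA 2, beside 9.42%. These were named after their values were seen. DUSP1, a phosphatase gene, was higher with both siRNAs (0.92 and 0.75), while its other measured probe set differed less, by 0.62 and 0.32. TSC22D3 was higher with siRNA 1 alone (0.89 and -0.09). CEBPD, a transcription factor gene, passed 1.5-fold higher with siRNA 2 (0.38 and 0.72). FKBP5, an androgen receptor cochaperone gene, was lower (-0.49 and -0.64) and passed 1.5-fold with siRNA 2. The brightest genes, KLF9 and ERRFI1, differed by 0.00 and -0.20 with siRNA 1 and 0.01 and 0.16 with siRNA 2.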

How the data were processed

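Gene expression was measured on 1 array for each of 3 siRNA groups. The deposited intensity values are linear, 1 column per array. GCOS 1.4 was used per the submitters' processing notes, while background correction, summarisation and normalization are not given in the sources used here. Had the columns been equalised before deposit, a general rise or fall of transcripts would be hidden.

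Intensities were put on the log2 scale after a floor at the 50th percentile, with no further normalization. Gene symbols came from the platform annotation, where 44988 probe sets had 1 symbol, 1831 several and 2569 none. In gene lists, a gene was read from its brightest probe set. Every measured member probe set is given by value or range, full values going to those 1.5-fold or more from control and to the brightest of each gene. From other lists the text names genes at 2-fold, or else the 2 brightest. Members and lists were chosen with earlier results of these data known. The number of arrays, 1 per group, limits the precision, so no test was run. Alternatives were other floors, quantile or median scaling, fewer probe sets, a 1.5-fold threshold and gene-level values. The counting was tested on simulated data with planted changes larger than any member difference here. That checks the code and does not bear on small differences or values near the floor. Promoters were read from a RefSeq table. Python 3.11.15, pandas 2.3.3 and numpy 2.4.6 were used.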

Additional observations from a re-analysis of the deposited data

How the results depend on the processing

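With no replicates, a log2 value was taken to move where it changed by more than 0.1, and a count where it changed by more than 1.5 times. The count of member probe sets 2-fold or more from the control with siRNA 1, 4 as reported, was 0 with only plain probe sets (12 measured), 18 at a 1.5-fold threshold, 2 for genes by their brightest probe set and 0 for genes by the mean of their probe sets. The siRNA 2 count, 1 as reported, was 0 with only plain probe sets and 4 at 1.5-fold. SLC39A1 and SLC39A14 had no measured plain probe set, so the counts over plain probe sets could not include them. Raising the floor to the 75th percentile gave a siRNA 1 median of 0.25 over all members, -0.026 for importers, 0.38 for metallothioneins and 0.13 for other zinc and manganese genes, and a siRNA 2 median of -0.081 for exporters. Lowering it to the 25th percentile gave a siRNA 1 median of 0.081 for metallothioneins and a siRNA 2 median of -0.064 for other zinc and manganese genes. With only plain probe sets, the siRNA 1 median over all members was 0.33, and the siRNA 2 medians were 0.019 for importers and 0.34 for exporters. With probe sets of a gene averaged, the medians of the other zinc and manganese genes were 0.11 and -0.095. The cause of these shifts was not tested, beyond the change in the genes that enter. The family and gene list alternatives were chosen after seeing the data. For the 40 probe sets named by rule, 377 values under other floors or scalings were within 0.1 of those reported, 5 moved further and 0 changed sign. No paired analysis was possible because each group holds 1 array.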
